A study of Homo sapiens with 2 samples.

Results

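The 42 genes described here encode the lysosome: the 3 transcription factors TFEB, TFE3 and MITF, 6 membrane proteins, 17 enzymes and enzyme activators, and 16 subunits or accessory proteins of the vacuolar proton pump, the V-ATPase. They were chosen by symbol from a list, without use of their values, and all 42 were among the 54261 features of the count table. Messenger RNA was sequenced from RKO, a human colorectal adenocarcinoma cell line, with 1 library from cells transfected with siRNA against the RNA-binding protein gene HNRNPM (siHNRNPM) and 1 from cells transfected with the control siRNA siNC (control). Their labelled genotypes are HNRNPM knockdown and WT, with no other allele or agent named, and neither the siRNA sequences nor the hours between transfection and harvest were stated in what was used here. With no replicates, no test of the condition could be made.

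Lysosomes break down proteins, glycans and lipids with hydrolases that work at acid pH. The pH is set by the V-ATPase, whose cytosolic V1 sector hydrolyses ATP and turns a rotor, and whose membrane V0 sector carries protons into the lumen. TFEB, TFE3 and MITF bind E-box sequences known as CLEAR elements in promoters of lysosomal genes. In nutrient-rich cells the kinase mTORC1 phosphorylates them on the lysosome and keeps much of the protein out of the nucleus, so that their activity is controlled at the protein level, which read counts do not show.

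Reads assigned to genes numbered 13056118 under siHNRNPM and 19931360 under control siRNA. Values are given as reads and as CPM, counts scaled for depth by TMM library sizes, and differences as the log2 ratio of siHNRNPM over control with a 95% counting interval in brackets. A gene is called higher or lower when that interval lies wholly above or below a ratio of 1. These intervals leave out variation between cultures, which was not measured. HNRNPM stood at 79.6 CPM under siHNRNPM and 144 CPM under control siRNA, or 55.2% of the control level (51.3% to 59.2%). Of the epithelial markers, KRT8 (34.4 CPM under siHNRNPM, 27.5 CPM under control siRNA) and EPCAM (11.5 and 9.0 CPM) were higher, at 0.32 (0.14 to 0.50) and 0.36 (0.04 to 0.68). KRT18 was at 0.06 (33.1 and 31.8 CPM), while CDH1 had 1 and 10 reads and KRT19 1 in each. The intestinal markers CDX1 and LGR5 had 0 reads in both libraries, and VIL1 had 0 and 1. CDX2 was lower, with 106 reads (8.10 CPM) and 212 (10.7 CPM), at -0.40 (-0.75 to -0.05). The part of these differences in the lysosomal values was not tested.

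The lysosomal set differed little between the libraries. Of the 42 members, 41 were measured, that is, reached a CPM of 1 in either library or both. Of these, 17 were higher in the siHNRNPM library (41.5%), against 22.0% of all 12925 measured genes by the same rule, and 9 were lower (22.0%), against 26.1% of all measured genes. Members are read more deeply than most genes, and a deeper gene passes this rule at a smaller difference. Among the 5070 genes that reached a CPM of 50 in either library, a limit chosen after the values were seen, 17 of the 35 members there were higher, against 27.8% of genes, and 7 were lower, against 36.7%. The median log2 ratio was 0.04 for the members and -0.01 for all measured genes, whose interquartile range of -0.21 to 0.18 held 27 of the 41 measured members. ATP6V1F was the sole member at least 1.5-fold higher (5.0% of measured genes) and ATP6V0A2 the sole member at least 1.5-fold lower (4.56%). None reached 2-fold, the level passed by 2.45% of measured genes upward and 1.49% downward. Among genes that reached a CPM of 50, 1.16% were 1.5-fold higher and 1.99% 1.5-fold lower, and 0.256% and 0.0592% reached 2-fold upward and downward. Of the members there, ATP6V1F alone passed 1.5-fold upward and 0 passed it downward.

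**Figure D1:**
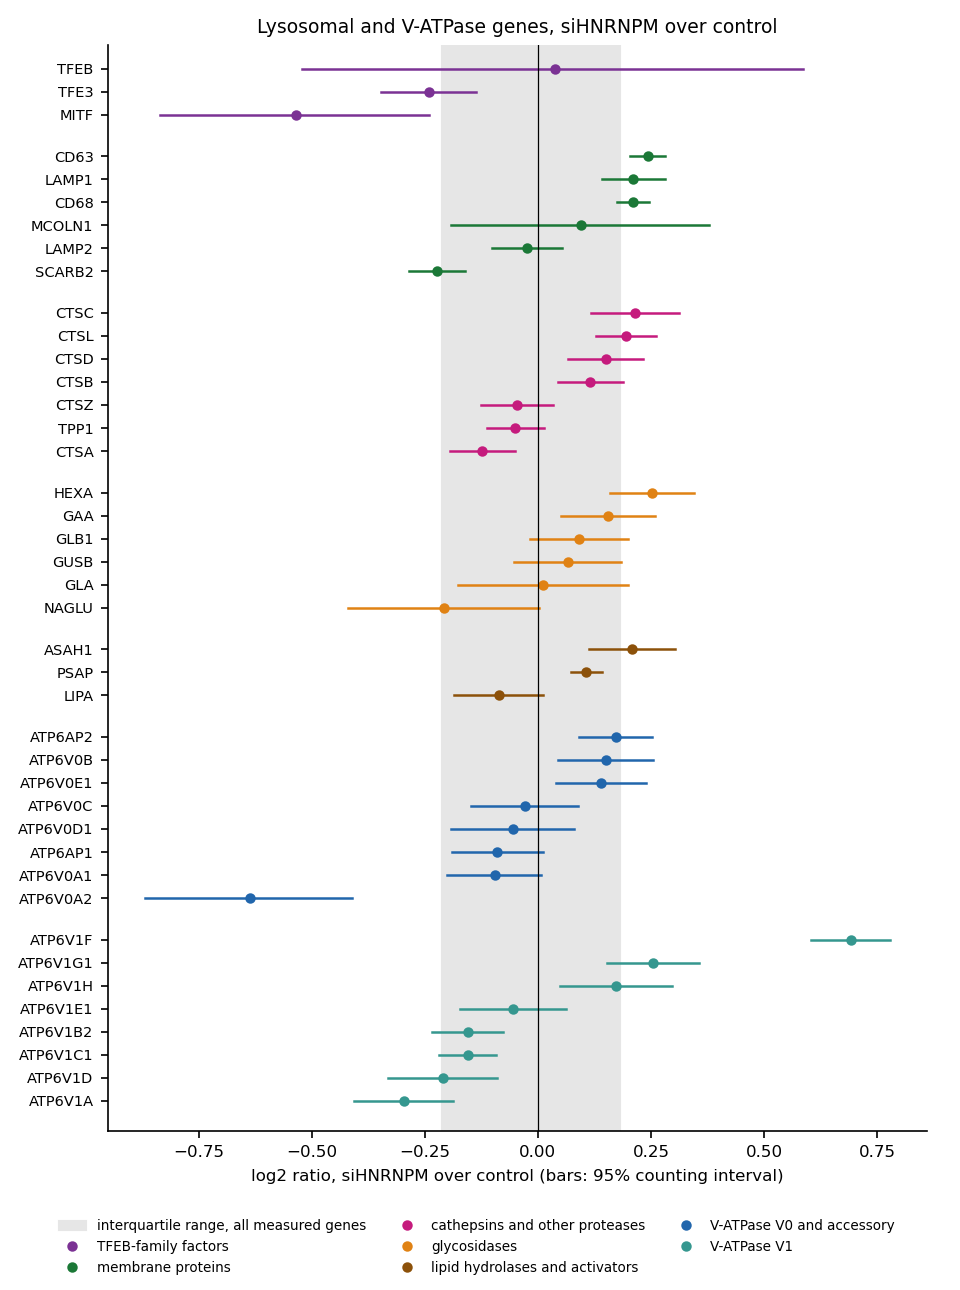
Log2 ratio of siHNRNPM over control for each of the 41 measured members, grouped by role, with 95% counting intervals as bars and the interquartile range of all measured genes as a grey band. ATP6V1F at 0.69 and ATP6V0A2 at -0.64 stand farthest from 0, and 38 of the 41 points lie within 0.3 of it.

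The 42 genes together took 0.704% of the reads of the siHNRNPM library and 0.662% of those of the control library, a sum of 7020 against 6632 CPM. CD68, PSAP and CD63 supplied 36.6% of that sum in the siHNRNPM library and 34.2% in the control library. The other 39 members summed to 4448 CPM under siHNRNPM and 4364 CPM under control siRNA, a log2 ratio of 0.03. In bulk RNA, more cells with a transcript and more transcript per cell cannot be told apart. Liver-type marker genes differed between the libraries: of 12, 3 were measured and all 3 (ALB, AFP and SERPINA1) were higher, the list summing to 34.5 CPM under siHNRNPM and 0.654 CPM under control siRNA. Of that list, APOA1, FGG and TTR had 0 reads in both libraries, and the part of such transcripts in the lysosomal values was not tested.

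**Figure D2:**
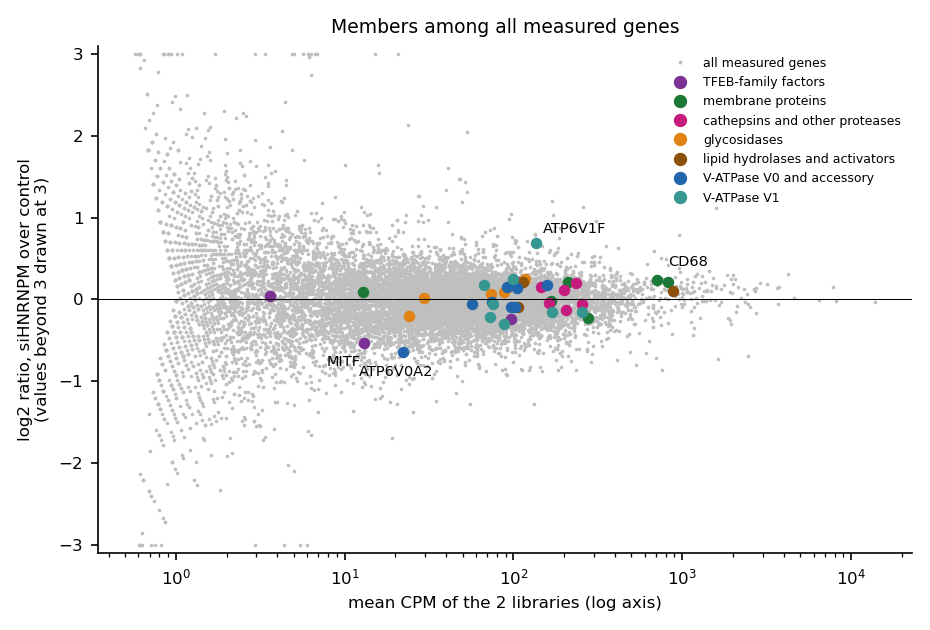
Log2 ratio of siHNRNPM over control (vertical axis, drawn at 3 where beyond it) against the mean CPM of the libraries (horizontal, log axis), with all 12925 measured genes in grey and the members coloured by role. Of the 41 members, 35 reached a CPM of 50 and sit near a ratio of 1 except for ATP6V1F, and MITF and ATP6V0A2 lie to the left, below it.

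Among the transcription factors, TFE3 had the most reads. TFE3 had 1160 reads (88.6 CPM) in the siHNRNPM library against 2083 (105 CPM) in the control library, lower by a log2 ratio of -0.24 (-0.35 to -0.14). MITF, the factor also known from melanocytes and osteoclasts, had 139 reads (10.6 CPM) against 306 (15.4 CPM), a ratio of -0.54 (-0.83 to -0.24). TFEB had 48 reads (3.67 CPM) against 71 (3.57 CPM), at 0.04 (-0.52 to 0.59), an interval too wide to place it on either side. Per length of exon, TFE3 stood at 26.0 CPM per kilobase in the siHNRNPM library and 30.7 in the control library, MITF at 1.74 and 2.52, and TFEB at 0.821 and 0.799. The order TFE3, MITF, TFEB was thus the same in both libraries. Whether MITF and TFE3 differed from each other could be asked within the libraries, free of scaling. The ratio of MITF to TFE3 reads was 0.120 in the siHNRNPM library and 0.147 in the control library, 0.816 times as large with an interval of 0.654 to 1.01 that includes 1. Of MITF-dependent genes of other lineages, TYR and MLANA had 0 reads in both libraries, OSCAR had 0 and 2, and ACP5 had 3 and 5. PMEL was measured, with 32 reads (2.45 CPM) under siHNRNPM and 33 (1.66 CPM) under control siRNA.

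Some of the promoters hold an E-box sequence of the kind that these factors bind. RefSeq promoter windows of 300 bases (250 before and 50 after the gene start, GRCh38.p14) were matched by symbol for 31 of the 42 members, and 10 of the 31 (32.3%) held the E-box CACGTG, which reads the same on both strands. Of all 27305 promoter windows on the primary chromosomes, 7.43% held it, and of the 9091 belonging to measured genes, 10.3%. The longer TCACGTG, searched on both strands and overlapping CACGTG, was in 9 of the 31 members and 3.82% of all windows. The symmetric 10-base form, CACGTG with GT before it and AC after it, was in 3 members, GAA, MCOLN1 and ATP6V1G1, and in 0.381% of all windows. Of the 10 members with the E-box, CD63 was the exception that had no T before it on either strand. LAMP1 held the most, 6 copies, 4 of them spaced along the distal part of the window and the last at the gene start itself. Its whole window, chr13:113296989-113297288 on the plus strand, is given to show this array, with CACGTG in capitals.
LAMP1: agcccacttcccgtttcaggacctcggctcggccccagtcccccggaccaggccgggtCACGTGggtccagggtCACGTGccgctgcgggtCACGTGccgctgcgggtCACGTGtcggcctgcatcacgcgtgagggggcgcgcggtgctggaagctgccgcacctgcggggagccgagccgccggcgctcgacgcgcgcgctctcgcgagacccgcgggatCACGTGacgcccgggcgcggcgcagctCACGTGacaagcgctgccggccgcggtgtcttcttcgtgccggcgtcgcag

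For the other members, windows of 30 bases around an E-box are shown 5′ to 3′ on the gene's own strand, with CACGTG in capitals, so that the flanking bases can be compared. They come from GAA (chr17:80101493-80101522 and chr17:80101538-80101567, plus strand), MCOLN1 (chr19:7522598-7522627, plus), ATP6V1G1 (chr9:114587699-114587728, plus), ATP6V0D1 (chr16:67481199-67481228, minus), CTSD (chr11:1763957-1763986, minus), CTSA (chr20:45891298-45891327, plus) and CD63 (chr12:55729172-55729201, minus).
GAA site 1: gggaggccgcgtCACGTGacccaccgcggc
GAA site 2: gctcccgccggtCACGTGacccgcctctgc
MCOLN1 site 2: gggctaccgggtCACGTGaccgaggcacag
ATP6V1G1: acgctgtgcggtCACGTGacaacgggggcg
ATP6V0D1: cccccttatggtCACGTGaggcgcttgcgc
CTSD: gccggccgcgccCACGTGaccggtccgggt
CTSA site 2: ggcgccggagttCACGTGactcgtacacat
CD63: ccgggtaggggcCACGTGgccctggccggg

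Both GAA sites, the MCOLN1 site and the ATP6V1G1 site carry the full 10-base form. Of the 10 members with an E-box, 9 were measured, and 6 of them were higher, 1 lower (CTSA) and 2 neither in the siHNRNPM library, with a median log2 ratio of 0.15 and a range of -0.12 to 0.25. The calls of 2 of the 6 did not hold under every alternative: ATP6V0B spanned 1 once the trend on GC and length was removed, and GAA once the control library was thinned. Of the 21 measured members with a window but no E-box, 5 were higher and 5 lower (median -0.05), over a range of -0.64 to 0.69. The ranges overlap. Members with no window are in neither group. Of these, CTSB, HEXA, ASAH1, PSAP, ATP6V0E1 and ATP6V1H were higher. ATP6V1A, ATP6V1B2 and ATP6V1C1 were lower, and LAMP2 and NAGLU neither. By the same rule, 22.0% of all measured genes were higher and 26.1% lower, and 27.8% and 36.7% of those that reached a CPM of 50. Across all measured genes the medians with and without CACGTG were alike, at -0.02 and -0.02. These are descriptions of letters in a window and of 2 libraries, and no binding was measured.

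**Figure D3:**
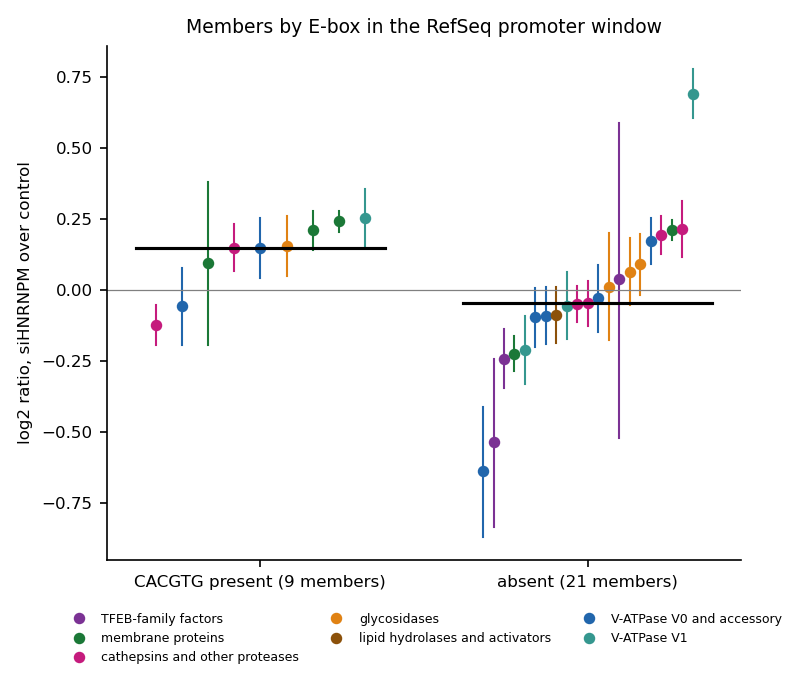
Log2 ratio of siHNRNPM over control for the 30 measured members with a RefSeq promoter window, split by presence (left, 9 members) or absence (right, 21 members) of CACGTG, with 95% counting intervals as vertical bars, colours for role and a black line at each median. The left median stands at 0.15 and the right at -0.05, and the left points lie inside the range of the right ones.

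Of the 6 membrane proteins, 3 were higher (50%, against 22.0% of measured genes and 27.8% of those reaching a CPM of 50). The rule called 1 lower (16.7%, against 26.1% and 36.7%), and 2 could not be placed. CD63, a tetraspanin of late endosomes and exosomes, had 10048 reads (768 CPM) in the siHNRNPM library against 12905 (649 CPM) in the control library, at 0.24 (0.20 to 0.28). LAMP1, a heavily glycosylated protein that lines the lysosomal membrane, had 2953 reads (226 CPM) against 3877 (195 CPM), at 0.21 (0.14 to 0.28). CD68, a LAMP-family protein best known from macrophages, had 11579 reads (885 CPM) against 15206 (765 CPM), at 0.21 (0.18 to 0.25). These 3 were thus 1.16 to 1.18 times the control level. SCARB2, which carries the glucosylceramide-degrading enzyme to the lysosome, went the other way, with 3320 reads (254 CPM) against 5890 (296 CPM) and a ratio of -0.22 (-0.29 to -0.16). The ratio of SCARB2 to LAMP1 reads was 1.12 in the siHNRNPM library and 1.52 in the control library, 0.740 times as large (0.694 to 0.789), a pair chosen after the values were seen. LAMP2, the partner of LAMP1, lay at -0.02, and the calcium channel gene MCOLN1 at 0.09 with 175 and 249 reads.

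CD68 had the highest level per length of all 41 measured members, at 471 CPM per kilobase in the siHNRNPM library and 407 in the control library. Of 10 leukocyte and macrophage markers, 0 were measured. CD14, AIF1, TYROBP and LAPTM5 had 0 reads in both libraries. CD163 had 6 reads under siHNRNPM and 0 under control siRNA, FCER1G 3 and 0, and ITGAM 2 and 2. PTPRC had 0 and 2, CSF1R 6 and 15, and SPI1 5 and 10. The 10 markers summed to 1.68 CPM under siHNRNPM and 1.46 CPM under control siRNA. After CD68 came CD63 at 333 and 281, and PSAP at 319 and 297. CD63 and PSAP thus changed places, PSAP being second in the control library. The 4th place belonged to ATP6V1F in both libraries.

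Of the 7 proteases, 4 were higher (57.1%, against 22.0% of measured genes and 27.8% of those reaching a CPM of 50). The rule called 1 lower (14.3%, against 26.1% and 36.7%). CTSC, the dipeptidyl peptidase that activates granule serine proteases, had 1509 reads (115 CPM) in the siHNRNPM library against 1975 (99.3 CPM) in the control library, at 0.22 (0.12 to 0.31). The cysteine protease gene CTSL had 3274 (250 CPM) against 4346 (219 CPM), at 0.19 (0.13 to 0.26), and the aspartic protease gene CTSD had 2018 (154 CPM) against 2763 (139 CPM), at 0.15 (0.07 to 0.23). CTSB, another cysteine protease gene, was at 0.12 (0.04 to 0.19). CTSA, a carboxypeptidase that also protects the enzymes encoded by GLB1 and NEU1, was lower, with 2557 reads (195 CPM) against 4230 (213 CPM) and a ratio of -0.12 (-0.19 to -0.05). CTSZ and TPP1 had ratios of -0.05 and -0.05 that spanned 1, and CTSZ was lower, at -0.14, with the GC and length trend removed. All 4 higher proteases stood between 1.08 and 1.16 times the control level, and the group's median was 0.12.

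Among the glycosidases, 2 of 6 measured genes were higher (33.3%, against 22.0% of all measured genes) and 0 lower (against 26.1%). HEXA, the alpha subunit of the hexosaminidase that degrades GM2 ganglioside, had 1673 reads (128 CPM) in the siHNRNPM library against 2133 (107 CPM) in the control library, at 0.25 (0.16 to 0.35). GAA, the acid glucosidase that degrades glycogen, had 1284 (98.1 CPM) against 1752 (88.1 CPM), at 0.15 (0.05 to 0.26). The galactosidase genes GLB1 and GLA were at 0.09 and 0.01. NAGLU, which takes part in heparan sulfate breakdown, had the lowest ratio, -0.21, from 293 and 514 reads, with an interval that just reached 1 (-0.42 to 0.00). GUSB, encoding beta-glucuronidase, was at 0.07, and its reads can be shared with pseudogenes. The 12 numbered GUSB pseudogenes of the table held 267 reads in the siHNRNPM library and 481 in the control library, 27.1% and 33.6% of the GUSB count, so its value is uncertain.

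NEU1, the sialidase gene, had 0 reads in both libraries. Only if its reads could be assigned to it would this allow up to 0.229 CPM under siHNRNPM and 0.151 CPM under control siRNA. NEU1 lies in the major histocompatibility region of chromosome 6 (31857659 to 31862906, minus strand, GRCh38, GENCODE 29). The genome build carries alternate sequences for this region, and NEU1 was the sole member with annotated transcripts on such sequences (36). Within 200 kb on either side, the table holds 37 protein-coding genes, NEU1 itself included, and 35 of these had 0 reads in both libraries. Alternate copies were annotated for 36 of the 37 and for 34 of those 35. Whether the count of 0 reflects the NEU1 transcript was not tested, and how reads with several matches were handled was not stated.

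Of the genes for lipid breakdown, 2 of 3 were higher (66.7%, against 22.0% of all measured genes) and 0 lower (against 26.1%). ASAH1, encoding acid ceramidase, had 1603 reads (122 CPM) in the siHNRNPM library against 2108 (106 CPM) in the control library, at 0.21 (0.11 to 0.30). PSAP, whose product is cut into the saposins that present sphingolipids to their hydrolases, had 12044 (920 CPM) against 16991 (855 CPM), at 0.11 (0.07 to 0.14). The acid lipase gene LIPA was at -0.09 (-0.19 to 0.01). Taking the proteases, glycosidases and lipid genes as the 16 measured enzymes and activators, 8 were higher, against 22.0% of all measured genes and 27.8% of those that reached a CPM of 50. By the same rule 1 was lower, against 26.1% and 36.7%, and the median was 0.10.

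The V-ATPase genes as a whole were level between the libraries, summing to 1683 CPM under siHNRNPM and 1659 CPM under control siRNA, but single subunits differed. Of the 8 V0 and accessory genes, 3 were higher (37.5%, against 22.0% of all measured genes). The rule called 1 lower (12.5%, against 26.1%), and 4 spanned a ratio of 1. ATP6V0A2, encoding the a2 isoform of the large V0 subunit, known from the Golgi and endosomes, had 226 reads (17.3 CPM) in the siHNRNPM library against 534 (26.9 CPM) in the control library. This was the lowest ratio of all members, -0.64 (-0.87 to -0.41), 1.56-fold lower, and ranked 636th from the lowest among the 12925 measured genes. It stayed lower but was no longer 1.5-fold lower with the GC and length trend removed, at -0.56, or with the control library thinned, at -0.57. ATP6V0A1, the a1 isoform, was at -0.10 (-0.20 to 0.01). Within the libraries the ratio of a2 to a1 reads was 0.186 in siHNRNPM and 0.270 in control cells, 0.687 times as large (0.576 to 0.818). Since ATP6V0A2 has the lowest ratio of all members, the direction of this comparison was fixed in advance. The a3 isoform gene TCIRG1, at -0.15 (-0.27 to -0.04), was not compared in this way. The ATP6V0A2 gene spans chr12:123712318-123761755, plus strand (GRCh38, GENCODE 29).

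The other V0 genes moved by less. ATP6AP2, an accessory protein also called the prorenin receptor, had 2183 reads (167 CPM) in the siHNRNPM library against 2944 (148 CPM) in the control library, at 0.17 (0.09 to 0.25). The proteolipid ring gene ATP6V0B had 1265 (96.7 CPM) against 1732 (87.1 CPM), at 0.15 (0.04 to 0.26), and the small e-subunit gene ATP6V0E1 had 1448 (111 CPM) against 1997 (100.4 CPM), at 0.14 (0.04 to 0.24). With a trend on GC content and transcript length removed, the intervals of ATP6V0B and ATP6V0E1 spanned 1, at 0.08 (-0.03 to 0.18) and 0.07 (-0.03 to 0.16). The main ring gene ATP6V0C was at -0.03, ATP6V0D1, which couples the ring to the rotor, at -0.06, and the accessory gene ATP6AP1 at -0.09. The V0 median was -0.04.

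Of the 8 V1 genes, 3 were higher (37.5%, against 22.0% of measured genes and 27.8% of those reaching a CPM of 50). The rule called 4 lower (50%, against 26.1% and 36.7%). ATP6V1E1 spanned a ratio of 1 at -0.05, and the V1 median was -0.10. ATP6V1F, a subunit of the rotor shaft, had 2200 reads (168 CPM) in the siHNRNPM library against 2070 (104 CPM) in the control library. It was 1.61-fold higher, the highest ratio of all members at 0.69 (0.60 to 0.78), and ranked 648th from the highest among the 12925 measured genes and 38th among the 5070 that reached a CPM of 50. With the GC and length trend removed it was at 0.53, below 1.5-fold. The gene spans chr7:128862826-128865844, plus strand (GRCh38, GENCODE 29). The gene KCP overlaps it on the opposite strand by 187 bases of exon and had 1 read in each library. ATP6V1G1, of the outer stalk, had 1420 reads (108 CPM) against 1809 (91.0 CPM), at 0.25 (0.15 to 0.36), and the regulatory subunit gene ATP6V1H was at 0.17 (0.05 to 0.30).

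The 4 lower V1 genes were ATP6V1A, ATP6V1D, ATP6V1B2 and ATP6V1C1. ATP6V1A, which carries the ATP-hydrolysing site, had 1033 reads (78.9 CPM) against 1928 (97.0 CPM) in the control library, at -0.30 (-0.41 to -0.19). ATP6V1D, the partner of ATP6V1F in the rotor shaft, had 885 (67.6 CPM) against 1556 (78.3 CPM), at -0.21 (-0.33 to -0.09). The second head subunit gene ATP6V1B2 and the stator gene ATP6V1C1 were at -0.15 (-0.23 to -0.08) and -0.16 (-0.22 to -0.09). ATP6V1D shares 253 bases of exon with EIF2S1 on the opposite strand, and EIF2S1 was at -0.29 (-0.38 to -0.21) from 1664 and 3100 reads. Since the use of strand in counting was not given, reads of this stretch cannot be told apart. Exons of 7 members overlap a gene with its own row of counts. Among them, CTSA shares 200 bases with PLTP (96 and 184 reads) and 244 with NEURL2 (11 and 8 reads), on the opposite strand. GLB1 shares 83 bases on the same strand with TMPPE (36 and 110 reads).

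Set against its partners within each library, ATP6V1F was higher relative to every other V1 subunit. The ratio of ATP6V1F to ATP6V1A reads was 2.13 in the siHNRNPM library and 1.07 in the control library, 1.98 times as large (1.80 to 2.19). Relative to ATP6V1D it was 1.87 times as large (1.69 to 2.07), and relative to ATP6V1G1, the nearest in ratio, 1.35 times (1.23 to 1.49). These 7 comparisons were chosen after the values were seen and do not depend on the scaling of the libraries. ATP6V1F and ATP6V1G1 also have the shortest exon length of the sector, 789 and 1080 bases. After removal of the trend on GC content and length, ATP6V1F remained higher at 0.53 (0.45 to 0.62) and ATP6V1G1 at 0.15 (0.05 to 0.25), with ATP6V1A at -0.25 and ATP6V1D at -0.26.

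**Figure D4:**
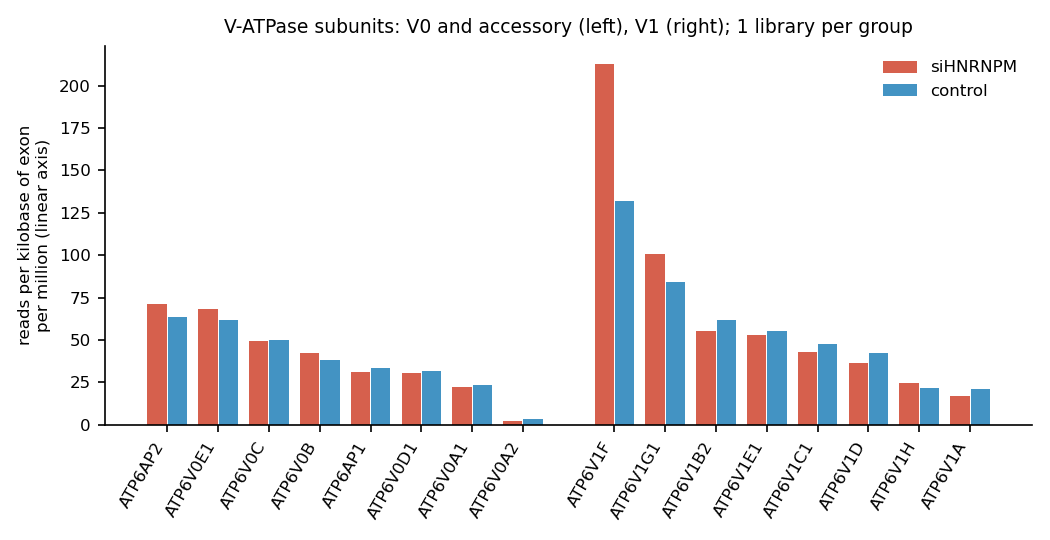
Level per length, in CPM per kilobase of exon, of the 8 V0 and accessory genes (left) and the 8 V1 genes (right), with the siHNRNPM library in red left of the control library in blue and 1 library behind each bar. ATP6V1F stands at 213 in the siHNRNPM library and 132 in the control library, and ATP6V0A2 at 2.35 and 3.66.

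Within each sector the order of levels per length was the same in both libraries. In V1 it ran from ATP6V1F and ATP6V1G1 (100.5 in the siHNRNPM library, 84.2 in the control library) down to ATP6V1H at 24.3 and 21.6 and ATP6V1A at 17.2 and 21.1. ATP6V1B2, at 55.6 and 61.9, and ATP6V1E1, at 53.1 and 55.2, were neighbours in that order. In V0 it ran from ATP6AP2 at 71.4 and 63.4 down to ATP6V0A1 at 22.2 and 23.7, with ATP6V0A2 far below. The lengths come from GENCODE 29, which may not be the annotation used for counting.

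In the 3′ UTRs, 3 of the 42 members held GTGAGAA, a 7-base sequence whose carriers had a lower median ratio in these libraries. Of 9841 measured protein-coding genes with at least 100 reads and no alternate copy, the 1477 with it (15.0%) had a median log2 ratio of -0.14 and the 8364 without it a median of -0.01. No other 7-base sequence was compared, and the part of 3′ UTR length in this difference was not tested. The member sites are shown with the sequence in capitals, read from GENCODE 29 transcripts on chromosomes 3, 11 and 6.
ATP6V1A: caggaatgtttGTGAGAAaccattgggaa
CTSC: tctctattaccGTGAGAAacatcagaact
TFEB: gtgttctagagGTGAGAAgagggcctggt

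The carriers did not move as a set: ATP6V1A was lower, CTSC higher and TFEB neither. MITF and ATP6V0A2, the members with the lowest ratios, have no such sequence in their longest 3′ UTR. The part of this sequence in the ratio of any member was not tested.

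Genes around the set were compared through 6 further lists of lysosomal genes, none of them members. Among all measured genes, the same rule called 22.0% higher and 26.1% lower, and among those that reached a CPM of 50, 27.8% and 36.7%. Of 28 measured other hydrolases and activators, 5 were higher and 8 lower (median -0.02). GM2A, the activator that hands GM2 ganglioside to the enzyme of HEXA, was at -0.53 (-0.67 to -0.39), and the sulfatase gene GALNS at -0.41. Of 31 other membrane proteins, 9 were higher and 5 lower (median 0.02), with the amino acid transporter SLC36A1 at -0.75, the nucleoside transporter SLC29A3 at -0.72 and TMEM192 at 0.52.

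Of 12 measured other V-ATPase subunits and assembly factors, 1 was higher and 6 lower (median -0.09). The assembly genes CCDC115 and TMEM199 were at 0.32 and -0.30, and DMXL1, of the complex that rejoins V1 to V0, at -0.37. Among alternative isoforms, ATP6V1B1 and ATP6V1G3 had 0 reads in both libraries and ATP6V0A4 had 0 and 1, while ATP6V1E2 had 67 and 96 and TCIRG1, the a3 isoform, 953 and 1609. In mannose-6-phosphate sorting, 0 of 11 were higher and 4 lower (36.4%, against 26.1% of all measured genes and 36.7% of those that reached a CPM of 50; median -0.09), among them CLN6 at -0.60, GGA2 at -0.44 and the sorting receptor gene SORT1 at -0.24.

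Of 23 measured genes of nutrient sensing and TFEB control, 6 were higher (26.1%, against 22.0% of all measured genes). Lower were 5 (21.7%, against 26.1%), and the median was 0.01. The kinase gene MTOR had 826 reads in the siHNRNPM library against 1973 in the control library, at -0.65 (-0.77 to -0.53), and its upstream inhibitors TSC1 and DEPDC5 were at -0.58 and -0.53. Of 21 genes of lysosome positioning and fusion, 3 were higher and 1 lower (median 0.04), with BLOC1S2 at 0.51, VPS18 at 0.43 and SNAPIN at -0.31. Of the genes named from these lists, GM2A, TMEM192 and MTOR hold 1 copy of GTGAGAA in the 3′ UTR and SLC36A1 and VPS18 hold 2. E-boxes were in 7 of 19 promoter windows of the nutrient-sensing list (36.8%), 3 of 9 of the sorting list (33.3%), 5 of 23 of the other hydrolases (21.7%), 4 of 21 of the positioning list (19.0%), 4 of 25 of the other membrane proteins (16.0%) and 1 of 13 of the other V-ATPase genes (7.69%).

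**Figure D5:**
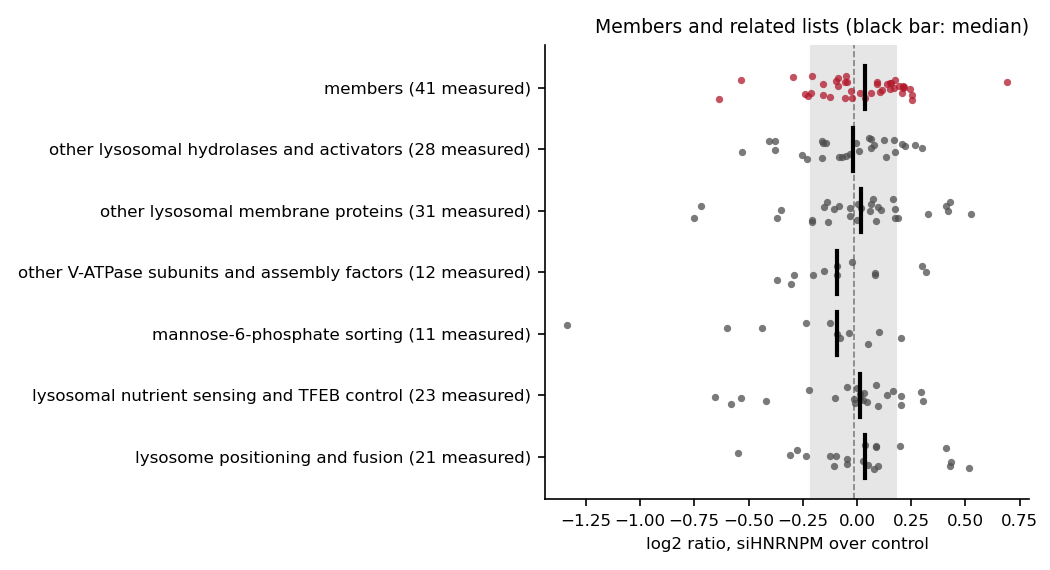
Log2 ratio of siHNRNPM over control for each measured gene of the members (red) and of 6 related lists (grey points), with a black bar at each median, the interquartile range of all measured genes as a grey band and their median as a dashed line. All list medians lie between -0.09 and 0.04, inside the band.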

How the data were processed

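RNA-seq counts of 2 RKO libraries were used, grouped by their treatment labels. The authors deposited raw counts of reads as whole numbers, 1 row per symbol, not normalized. HISAT2 2.0.4 and GRCh38 are named, with no stated role, per the submitters' processing notes. The read counter, annotation and use of strand are not stated in what was used here. Counts were scaled with TMM (edgeR 4.0.16, R 4.3.3; factors 1.00 for siHNRNPM and 0.998 for control). Genes below a CPM of 1 in both libraries were dropped. A count of 0 was set to 0.5 for a log2 ratio. The 95% interval of each ratio was derived by the exact Clopper-Pearson method from how a gene's reads split between the libraries, and that of a ratio between 2 genes from the exact conditional odds ratio. Both cover counting error only. Since PCR copies are not independent molecules, both may also be too narrow for that error. With 0 reads, 3 counts were taken as the upper limit.

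The members, lists and rules were chosen with earlier results of these data known. The text names TFEB, TFE3 and MITF, in each role group the members farthest from a ratio of 1 among those with an interval clear of it (at most 4), and up to 3 genes per related list by the same ranking. An item that this ranking gives in 1 list is not reported here. Other members are given by their ratio. Exon lengths, positions, 3′ UTRs (longest of the protein-coding transcripts) and copies on alternate sequences came from GENCODE 29, and promoters from RefSeq (GRCh38.p14). Alternatives covered total-count, DESeq2 1.42.0 and upper-quartile scaling, CPM filters, thinning of the control library, a GC and length trend (mgcv 1.9.3), and leaving out genes with alternate copies or GTGAGAA.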

Additional observations from a re-analysis of the deposited data

How the results depend on the processing

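No paired analysis was possible because each group had 1 library, and none was left out. Under 10 alternatives, 621 of 667 recomputed values stayed near the reported ones (within 1.5 times for counts and shares, within the counting interval for ratios and medians) and 0 called values changed sign. Another scaling shifted the median of all genes by at most 0.03.

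Removing the GC and length trend changed most: 14 members were lower instead of 9, and 0 reached 1.5-fold in either direction. The share of all measured genes called with the trend removed is not given here. Whether the members or all genes shifted thus cannot be told from these counts. The median of the membrane proteins came to 0.085. It left 2 proteases, 1 glycosidase and 3 V0 genes lower, and 1 V0 gene higher. In the related lists it gave 2 other hydrolases, 2 other V-ATPase genes, 1 sorting gene and 5 positioning genes higher, and 3 other V-ATPase genes lower. CD63, CD68, ATP6V1F and ATP6V1G1 moved beyond their intervals, to 0.13, 0.15, 0.53 and 0.15, and so did ATP6V1C1, CTSZ and ATP6V0C, to -0.08, -0.14 and -0.15. The 5 members that became lower were CTSZ, NAGLU, ATP6AP1, ATP6V0C and ATP6V1E1. With the control library thinned, 0 members were 1.5-fold lower, 1 glycosidase was higher and 1 lower, 1 lipid gene was lower and 1 sorting gene higher. DESeq2 size factors gave 1 glycosidase and 2 V0 genes lower, and upper-quartile factors gave 2 other V-ATPase genes, 2 sorting genes and 6 positioning genes higher. Without GTGAGAA carriers the protease median was 0.035, and 4 other hydrolases and 3 other membrane genes were lower. The cause was not tested for any of these, except that fewer genes entered where genes were left out.

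The filter changed counts because it changed the genes measured. With no CPM filter, 14.5% of genes were higher and 16.1% lower. At a CPM of 5 or more, 2.75% of genes were 1.5-fold higher. At a CPM of 50 or more, chosen after the values were seen, these shares were 1.16% higher and 1.99% lower, 0 members were 1.5-fold lower, 1 transcription factor and 0 V0 genes were lower, 3 and 5 other hydrolases were higher and lower, as were 5 and 2 other membrane genes and 0 and 3 other V-ATPase genes, and 2 nutrient-sensing and 0 positioning genes were lower. Depth limits TFEB, MCOLN1 and NAGLU most, whose intervals are widest among members without a call.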
